A study of Sus scrofa with 12 samples.

Results

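The acute phase genes outside the serpins were examined in the liver of 12 pigs. The search covered 10 symbols (LOC100525856, SAA3, HP, CRP, ORM1, ITIH4, LBP, HPX, SOCS3 and STAT3), and 8 of the 10 were matched to the 25388 transcript clusters of the array, each cluster being a set of probes for a gene or a stretch of the genome. Of these, 7 were matched by the names in the array annotation, and SAA3 was matched through its RefSeq accession, since the annotation calls it serum amyloid A2. ORM1 and LBP were matched neither by symbol nor by accession and are not analysed here.

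Liver RNA of 6 pigs in group PIV and 6 pigs in group CON was hybridised to 1 Affymetrix porcine gene array per pig. Pigs of group PIV received sodium pivalate in NaHCO3 solution by mouth, 30 mg per kg of body weight daily for 28 days, and pigs of group CON received the NaHCO3 solution without it. All were male crossbreds of Pietrain with German Landrace and German Edelschwein, 5 weeks old at the start, ate the same diet low in carnitine and were killed shortly after a meal. Pivalate is excreted as its carnitine ester, so that the pigs of group PIV serve as a model of secondary carnitine deficiency; the pigs were kept in pairs, but their pens are not given in the labels, and each pig was taken as independent. Arrays 1 to 6 carried group CON and arrays 7 to 12 group PIV, so that the order of the arrays cannot be told apart from the treatment.

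The acute phase response is the change in the secretion of plasma proteins by the hepatocyte during infection, injury or inflammation. Interleukin 6 and its relatives bind receptors that share gp130 and activate JAK kinases, which phosphorylate STAT3. STAT3 then enters the nucleus and raises the transcription of genes such as HP and CRP, and it also raises SOCS3, which in turn inhibits the receptor and its kinases, while interleukin 1 and TNF act with it on the serum amyloid A genes through NF-kappa B. In the pig, haptoglobin, C-reactive protein, serum amyloid A and ITIH4, known there as pig-MAP, are the plasma proteins used to detect inflammation, and albumin and transthyretin are among those that decline.

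The values are log2 signals after RMA, the scale on which the authors deposited them, and differences in log2 signal are given as group PIV minus group CON. A log2 signal depends on the probes of its cluster, so that levels were compared between pigs and not between genes. In bulk liver, fewer cells of a type and less RNA per cell cannot be told apart. The hepatocyte markers measured had a mean log2 signal of 11.42 to 11.57 in group PIV and 11.42 to 11.53 in group CON, and those of neutrophils had 3.85 to 3.97 in group PIV and 3.67 to 3.93 in group CON. Of the hepatocyte markers, ALB, TTR and APOA1 are also counted below among proteins that decline in the acute phase, and FGB among those that increase. Their mean is therefore no separate measure of hepatocyte content. Many blood cell markers were dim, that is, they reached a log2 signal of 5 in fewer than 6 pigs. These were 6 of the 6 neutrophil markers, 4 of the 7 T and NK cell markers and 4 of the 5 B and plasma cell markers measured. Of the markers of liver and blood cell types measured, JCHAIN of plasma cells alone passed the filter described next (log2 FC −0.47). The log2 FC of the 7 T and NK cell markers was above 0 in 7 with a median of 0.16, while 47.7% of all transcripts lay below 0. CON pig K22 had the lowest signal of 6 of these 7 markers. The part of the markers in the results was not tested. The filter took transcripts whose FC exceeded 1.2, upwards or downwards, and whose p from limma was under 0.05 before adjustment. For each gene an exact two-sided permutation test of the difference in means was run as well, in which the 12 pigs were split into 6 and 6 in every way and the smallest p that can be reached is 0.00216.

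Of the 8 genes, the serum amyloid A gene LOC100525856 alone passed the filter, with a lower signal in group PIV, so that 1 was lower and 0 were higher. Over all 25385 transcripts tested 1.82% passed, with 0.788% lower and 1.03% higher in group PIV, and among transcripts with a gene symbol 1.57% passed. Which direction was the more frequent depended on the scaling, since 262 transcripts were higher and 200 lower with the deposited signals but 194 higher and 266 lower when all arrays were given the same median, and 71 were higher and 90 lower among transcripts with a log2 signal of at least 5 in 6 pigs. After Benjamini-Hochberg adjustment over all transcripts, 0 transcripts had an adjusted p under 0.05 with limma (921 transcripts, or 3.63%, had an unadjusted p under 0.05, 1 of the 8 genes among them), and each of the 8 genes had an adjusted p of 1. The log2 FC was below 0 for 7 of the 8 genes, with a median of −0.11, beside 47.7% of all transcripts and a median over all transcripts of 0.01. Without CON pig K3, which had the highest signal of 6 of the 8 genes, 4 of the 8 lay below 0 and the median was 0.01. The groups overlapped in each of the 8 genes, and 0.158% of all transcripts had groups without overlap.

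**Figure D1:**
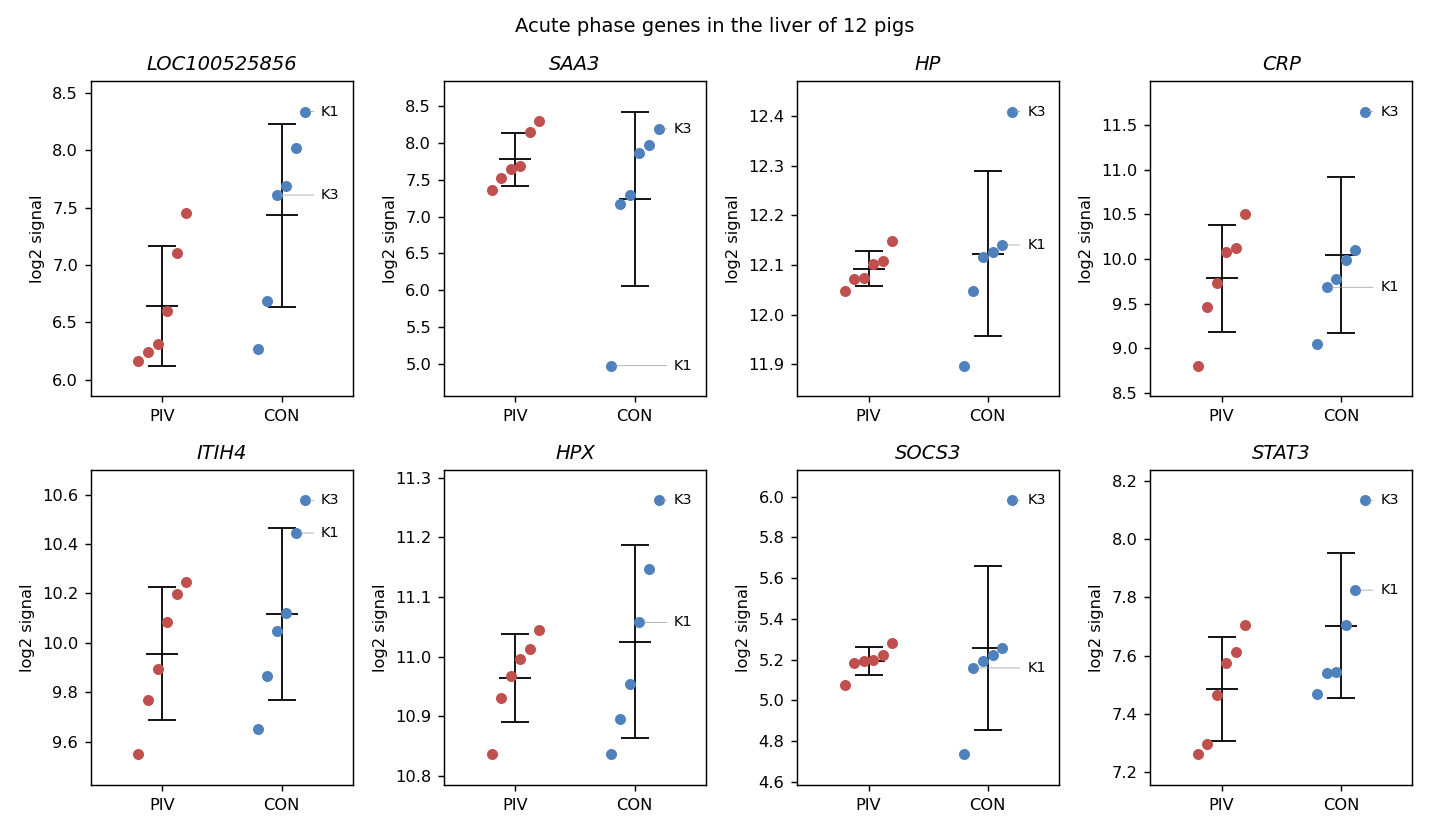
Log2 signal of each of the 8 acute phase genes in the liver of 6 pigs of group PIV and 6 pigs of group CON, 1 point per pig, with the group mean as a horizontal line, the SD as whiskers and CON pigs K1 and K3 labelled. CON pig K1 stands apart in SAA3 (4.98) and CON pig K3 in CRP (11.65).

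LOC100525856 is annotated on the array as a gene for a protein like serum amyloid A, a small apolipoprotein of high-density lipoprotein that the liver releases in inflammation, and RefSeq now lists it as the pseudogene SAA1P. Its log2 signal in group PIV had a lowest value of 6.17, a median of 6.46 and a highest of 7.45, against 6.27, 7.65 and 8.34 in group CON. Of the CON pigs 4 lay above every PIV pig, and 2 PIV pigs lay below every CON pig, with the others in a shared range. The mean was 6.65 ± 0.52 in group PIV and 7.43 ± 0.80 in group CON (SD, n = 6 each), a log2 FC of −0.79 with a standard error (SE) of 0.32 and a 95% interval of −1.46 to −0.12, or a FC of −1.73 (limma, p = 0.0241; exact permutation test, p = 0.0693). The log2 FC kept its sign without each pig in turn but left the filter without CON pig K1 (−0.61), CON pig K42 (−0.67), PIV pig P10 (−0.69) or PIV pig P30 (−0.71), and it also missed the filter with the plain unpaired test that the methods name (the methods' t-test).

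SAA3, the serum amyloid A isoform that many mammals also make outside the liver, had the opposite sign. Its log2 signal in group PIV had a lowest value of 7.36, a median of 7.67 and a highest of 8.29, against 4.98, 7.58 and 8.19 in group CON. The low end of group CON was a single animal, pig K1 at 4.98, while the next CON pig had 7.16 and the other 11 pigs of both groups lay at 7.16 or above. The mean was 7.78 ± 0.36 in group PIV and 7.24 ± 1.18 in group CON (SD, n = 6 each), a log2 FC of 0.53 (SE 0.41, 95% interval −0.33 to 1.39) that did not pass the filter (exact permutation test, p = 0.372). Without pig K1 group CON averaged 7.70 with a SD of 0.45, and the log2 FC was 0.08.

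The clusters of both serum amyloid A genes lie near each other on chromosome 2 in the array annotation, for which the sources used here name no genome build. LOC100525856 spans 38204541 to 38205354 on the minus strand and SAA3 spans 38216373 to 38262478 on the plus strand, with 11018 bases between them. RefSeq lists SAA2, SAA4 and LOC102165880 between these genes. Pig K1 had the highest signal of LOC100525856 (8.34) and the lowest of SAA3 (4.98). Over the 12 pigs, with the group means removed, the signals of both genes ran in opposite directions without passing after adjustment (Pearson r = −0.60, permutation p = 0.0751, adjusted p = 0.150; Spearman rho = −0.59, permutation p = 0.0493, adjusted p = 0.453, over 28 pairs of genes). Without the 2 pigs farthest from the median of LOC100525856, K1 and K4, r was −0.33, and it was −0.35 within group PIV and −0.68 within group CON. Both clusters are marked in the annotation as free of cross-hybridisation, although serum amyloid A genes resemble each other in sequence, and whether RNA of 1 gene reached probes of the other was not tested.

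C-reactive protein, encoded by CRP, is a pentraxin that binds phosphocholine on bacteria and dying cells and activates complement. The log2 signal of CRP in group PIV had a lowest value of 8.81, a median of 9.91 and a highest of 10.51, against 9.05, 9.89 and 11.65 in group CON. The medians were nearly equal, and pig K3 was alone above all other pigs. The mean was 9.79 ± 0.60 in group PIV and 10.04 ± 0.87 in group CON (SD, n = 6 each), a log2 FC of −0.26 (SE 0.35, 95% interval −1.0 to 0.48; exact permutation test, p = 0.591), and it was 0.06 without K3. A further cluster named CRP, dimmer and marked as cross-hybridising, had a log2 FC of −0.34 (exact permutation test, p = 0.403), was likewise highest in K3 (8.01) and was lowest in PIV pig P31 (5.77), as was the first cluster.

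ITIH4 encodes the heavy chain of the inter-alpha-trypsin inhibitor family that circulates as pig-MAP. Its log2 signal in group PIV had a lowest value of 9.55, a median of 9.99 and a highest of 10.25, against 9.65, 10.08 and 10.58 in group CON. The groups covered largely the same range, with pigs K1 (10.44) and K3 (10.58) of group CON above all PIV pigs. The log2 FC was −0.16 (SE 0.16, 95% interval −0.49 to 0.17) and did not pass the filter (exact permutation test, p = 0.385).

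The scavengers of haemoglobin and haem differed least between pigs. Haptoglobin, encoded by HP, binds free haemoglobin, and haemopexin, encoded by HPX, binds free haem. The log2 signal of HP lay between 12.05 and 12.15 with a median of 12.09 in group PIV, and between 11.90 and 12.41 with a median of 12.12 in group CON. That of HPX lay between 10.84 and 11.04 with a median of 10.98 in group PIV, and between 10.84 and 11.26 with a median of 11.01 in group CON. For HP the range of group PIV lay within that of group CON, and for HPX it covered the lower part of it. The log2 FC was −0.03 for HP (SE 0.08, 95% interval −0.21 to 0.14; exact permutation test, p = 0.675) and −0.06 for HPX (SE 0.08, 95% interval −0.24 to 0.12; exact permutation test, p = 0.426). For HP the sign depended on K3, without which the log2 FC was 0.03.

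STAT3, the transcription factor that carries the interleukin 6 signal to the nucleus, had a log2 signal of 7.26 to 7.70 with a median of 7.52 in group PIV, and of 7.47 to 8.13 with a median of 7.63 in group CON. Pigs K1 (7.83), K3 (8.13) and K23 (7.71) of group CON lay above all PIV pigs, and 3 PIV pigs lay below all CON pigs. The log2 FC was −0.22 (SE 0.12, 95% interval −0.47 to 0.03) and did not pass the filter (exact permutation test, p = 0.11). The cluster holds only 8 probes, against 22 to 27 for the other 7 genes. Without CON pig K42 the log2 FC was −0.26 and passed the filter, whereas without CON pig K3 it was −0.13 and did not.

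SOCS3, the feedback inhibitor that STAT3 induces, had a log2 signal of 5.07 to 5.28 with a median of 5.20 in group PIV, and of 4.74 to 5.98 with a median of 5.21 in group CON. Both ends of the range belonged to group CON, pig K22 at 4.74 and pig K3 at 5.98. The log2 FC was −0.07 (SE 0.15, 95% interval −0.38 to 0.24; exact permutation test, p = 0.723) and was 0.08 without K3. The cluster of SOCS3 was named only through its mRNA entry. That entry is marked as cross-hybridising, although the annotation puts the cluster in the same probe class as the serum amyloid A clusters. Its signal may therefore include other transcripts, which was not tested.

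**Figure D2:**
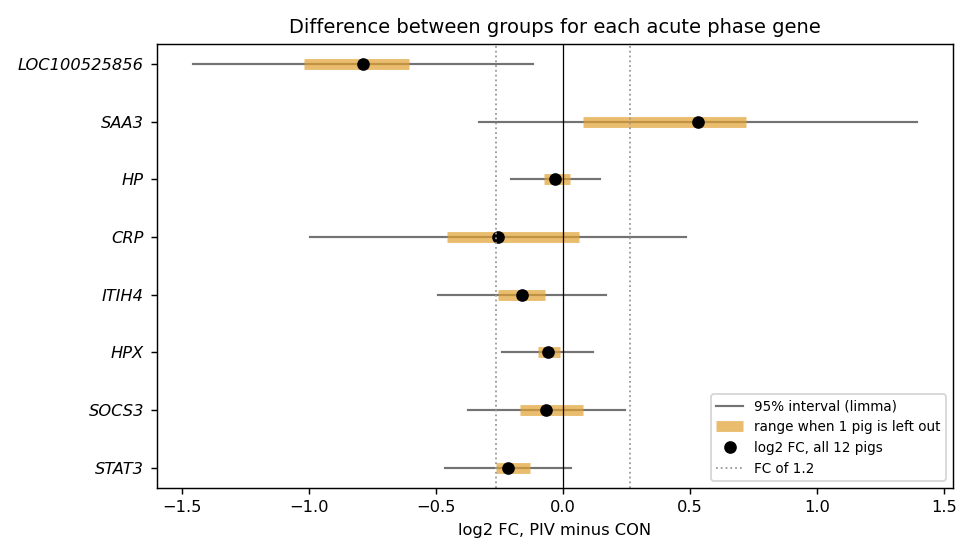
Log2 FC of each acute phase gene, group PIV minus group CON, as a point, with its 95% interval from limma as a thin line and the range over fits without 1 pig as a thick bar, dotted lines marking a FC of 1.2. The interval of LOC100525856 (−1.46 to −0.12) lies below 0, and those of the other 7 genes include 0.

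An alpha-1-acid glycoprotein-like gene, LOC102157831, belongs to the family of ORM1 and was measured, although its cluster does not carry that symbol. Its log2 signal was 12.28 ± 0.15 in group PIV and 12.33 ± 0.13 in group CON (SD, n = 6 each), a log2 FC of −0.05 (exact permutation test, p = 0.548).

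The 8 genes differed from each other in how much pigs of the same group varied. The SD within groups, pooled over both groups, was 0.872 for SAA3, 0.746 for CRP and 0.674 for LOC100525856, which exceeded that of at least 99.6% of all transcripts. ITIH4 (91.5%) and SOCS3 (88.8%) followed, then STAT3 (69.3%), whereas HPX (15.9%) and HP (13.5%) varied less than most transcripts, whose median SD was 0.18. The SD was smaller in group PIV than in group CON for 8 of the 8 genes, and still for 6 of the 8 without K3. Among all transcripts 64.2% had the smaller SD in group PIV, and 63.2% without K3. The smallest PIV SD was that of HP, with 0.0352 in group PIV and 0.167 in group CON.

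Pig K3 of group CON was singled out after its values were seen. Without it the SD of group CON was 0.413 for CRP and 0.214 for SOCS3, against 0.870 and 0.403 with it, but 0.885 for LOC100525856 and 1.21 for SAA3, against 0.796 and 1.18 with it. K3 had the highest signal of the 12 pigs for HP, CRP, ITIH4, HPX, SOCS3 and STAT3 and the second highest for SAA3, while it was highest in 9.34% of all transcripts. Its CRP signal exceeded the mean of the other 11 pigs by 1.89 (a fold of 3.72), a larger excess than that of all but 0.0158% of transcripts. The excess was 0.83 for SOCS3, 0.59 for ITIH4, 0.59 for STAT3, 0.33 for HP and 0.29 for HPX. The median over the 8 genes was 0.60, beside 0.01 over all transcripts. A mean over the 8 genes, each with its mean over the 12 pigs subtracted, was 0.67 in K3, whereas it lay between −0.20 and 0.02 in the 6 pigs of group PIV and reached −0.27 at the lowest in group CON, with a mean of −0.07 ± 0.08 in group PIV and 0.07 ± 0.33 in group CON (SD, n = 6 each). Without the serum amyloid A genes this mean was 0.69 in K3. It then lay between −0.33 and 0.12 in group PIV, with a SD of 0.15, and reached −0.36 at the lowest in group CON.

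Genes around the members also stood apart in K3. Of 17 measured proteins that decline in the acute phase, such as albumin, 10 had their lowest signal in K3, with IGF1 1.02 below the mean of the other 11 pigs (a log2 difference of −1.02), FETUB at −0.51, SERPINA6 at −0.43, PON1 at −0.40 and TTR at −0.19. Among all transcripts 8.41% were lowest in K3. In K3, 4 of the 17 genes lay above the mean of the other 11 pigs, APOA4 being highest there, and the median difference was −0.14. CEBPD, a transcription factor that cytokines induce in the liver, was highest in K3, where its log2 signal of 7.68 was 0.89 above the mean of the other 11 pigs. Of 20 measured proteins of other families that increase in the acute phase, 7 were highest in K3, among them APCS (a difference of 0.98), LRG1 (0.65), C4A (0.55) and CP (0.43), and 4 were lowest, SERPINA3-2 (−6.12), SERPINA1 (−0.31), FN1 (−0.27) and A2M (−0.15). HAMP, which was lowest in pig K4, also lay below the mean of the other 11 pigs in K3 (−0.95). The median difference over these 20 genes was 0.08, with 14 above 0 and 6 below. The mean log2 signal of the 9 macrophage markers was highest in K3 as well, at 8.21, while it lay between 7.85 and 8.15 in group PIV and from 7.81 upwards in group CON. That of the 5 measured B and plasma cell markers was also highest in K3 (4.77), and the median difference of K3 from the other 11 pigs was 0.29 over the macrophage markers, 0.29 over the 7 T and NK cell markers and 0.17 over the B and plasma cell markers. This difference was 0.08 over the endothelium markers and 0.04 over the red cell markers. Markers of other cell types went the other way, with −0.27 for stellate cells, −0.15 for cholangiocytes, −0.10 for hepatocytes and −0.02 for neutrophils. Of the macrophage markers 7 lay above 0 and 2 below. The part of these cells in the signals of K3 was not tested, and 4 of the 7 T and NK cell markers and 4 of the 5 B and plasma cell markers were dim.

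**Figure D3:**
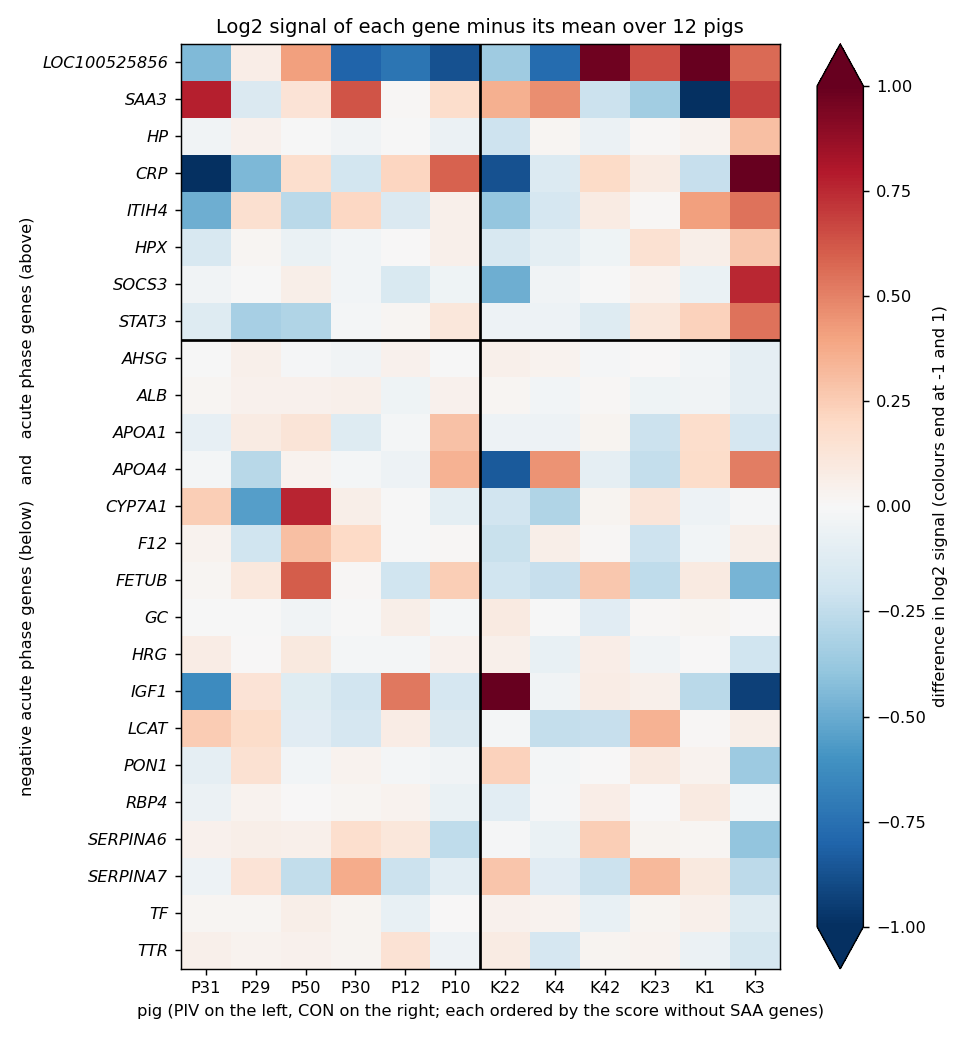
Log2 signal of the 8 acute phase genes (above the line) and of 17 proteins that decline in the acute phase (below it) after subtraction of each gene's mean over the 12 pigs, as colours ending at a difference of 1 either way, with the pigs of group PIV left of those of group CON and each group ordered by the mean over the genes other than serum amyloid A. Pig K3 holds the highest value of 6 of the 8 genes, and pig K1 is highest for LOC100525856 and lowest for SAA3.

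At the other end, PIV pig P31 had the lowest signal of CRP (8.81), ITIH4 (9.55) and HPX (10.84), together with the highest of SAA3 (8.29), and CON pig K22 had the lowest signal of HP (11.90) and SOCS3 (4.74). K22 also had the lowest of the 12 weights that limma gives arrays by their quality (0.52), and the part of this array in its low signals was not tested.

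To ask whether the genes were high in the same pigs, their signals were correlated over the 12 pigs with the group means removed, in 28 pairs. Pearson's r was above 0 in 23 of the 28 pairs and in 19 without K3. After adjustment over the 28 pairs 0 had an adjusted p under 0.05, with Pearson's r or with Spearman's rho. The closest to the threshold were CRP and HPX (r = 0.80, permutation p = 0.00307, adjusted p = 0.0685; rho = 0.59, permutation p = 0.0595, adjusted p = 0.453) and ITIH4 and HPX (r = 0.80, permutation p = 0.00489, adjusted p = 0.0685; rho = 0.73, permutation p = 0.0236, adjusted p = 0.453). Without the 2 pigs farthest from the median, K3 and K22 in both cases, r was 0.50 for CRP and HPX and 0.61 for ITIH4 and HPX. Within groups r was 0.76 in group PIV and 0.83 in group CON for CRP and HPX, and 0.80 in group PIV and 0.83 in group CON for ITIH4 and HPX. Both pairs had an adjusted p of 0.0357 when CON pig K1 was left out, and ITIH4 and HPX had one of 0.0196 when CON pig K23 was left out.

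The highest r belonged to HP and SOCS3 (r = 0.94, permutation p = 0.0188, adjusted p = 0.0875; rho = 0.43, permutation p = 0.186, adjusted p = 0.471) and rested on K3 and K22, without which it was 0.05. The 15 pairs among the 6 genes that were highest in K3 had r between 0.58 and 0.94, and without the 2 farthest pigs r lay between −0.42 and 0.61, above 0 in 11 of the 15. Picking genes that share their highest pig favours an r above 0 while K3 is included. Without K3 alone r lay between −0.05 and 0.80 with a median of 0.44, above 0 in 14 of the 15 pairs. Within group PIV, which holds neither K3 nor K22, the r of these pairs lay between −0.75 and 0.80 with a median of 0.14. Within group CON, which holds both pigs, it lay between 0.77 and 0.99 with a median of 0.84.

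**Figure D4:**
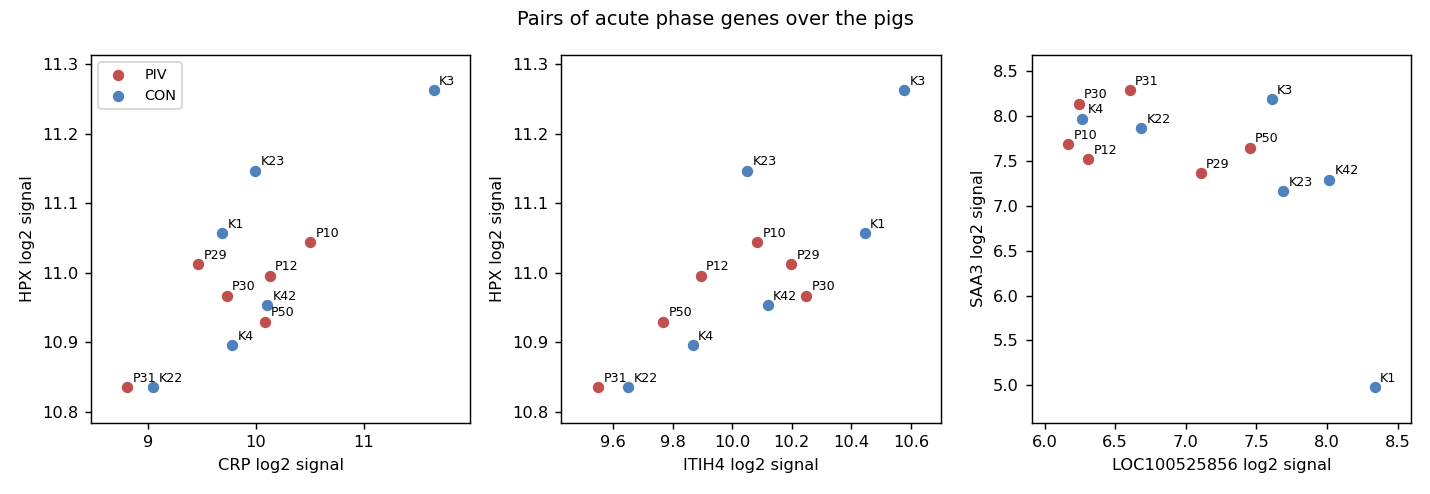
Log2 signal of HPX against that of CRP (left) and of ITIH4 (middle), and of SAA3 against that of LOC100525856 (right), 1 labelled point per pig with group PIV in red and group CON in blue. Pigs K3 and K22 stand at or near the ends of the 2 plots of HPX, and pig K1 stands alone at the lower right of the plot of SAA3.

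As a description, 7186 genes with a symbol and a log2 signal of at least 5 in 6 or more pigs were compared with the mean over the 8 genes. After the group means were removed, the genes whose pattern was most like that mean were picked. They were LOC100738508 (r = 0.91 over 12 pigs), LOC100518837, annotated as GABARAPL1 (r = 0.90), LOC100624652, annotated as dysferlin-like (r = 0.90), GMIP (r = 0.88) and PURB (r = 0.86). LOC100738508, a noncoding RNA in the array annotation that RefSeq now gives as TXNL4B, lies at 10794066 to 10794281 on the minus strand of chromosome 6, inside the span of HP on the plus strand (10789560 to 10794379). Its r with HP was 0.71 over the 12 pigs, with the group means removed. Without K3 the r with the mean over the 8 genes was 0.85 for LOC100738508 and 0.85 for LOC100518837, but 0.43 for LOC100624652, 0.56 for GMIP and 0.54 for PURB. The annotation puts the cluster of LOC100518837 in the same cross-hybridising probe class as the further CRP cluster, so that its signal may include other transcripts.

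Of 119 different genes measured in the lists around the members 3 passed the filter, CISH, IL1R1 and HAMP, beside 1.57% of the transcripts with a gene symbol. Of 23 measured genes of interleukin 6 and gp130 signalling 0 were higher and 1 was lower in group PIV, CISH, a relative of SOCS3 that inhibits STAT5 signalling (log2 FC −1.32). The next by p were STAT5B, with 6.00 ± 0.17 in group PIV and 5.78 ± 0.11 in group CON (SD, n = 6 each; log2 FC 0.21, exact permutation test, p = 0.0216) and a FC of 1.16 that is under the threshold, the kinase JAK1 (log2 FC −0.14) and the oncostatin M receptor OSMR (−0.19). The median log2 FC of these 23 genes was −0.02, beside 0.01 over all transcripts.

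Of 18 measured genes of interleukin 1 and TNF signalling, 1 was lower and 0 were higher. IL1R1, the receptor that carries the interleukin 1 signal, had a log2 signal of 8.83 ± 0.31 in group PIV and 9.20 ± 0.35 in group CON (SD, n = 6 each; log2 FC −0.37, exact permutation test, p = 0.0909). It left the filter with the methods' t-test, with array weights and without CON pig K22, K23 or K42 or PIV pig P10, P29, P30 or P31. TNF (log2 FC 0.21), IL1B (0.20) and NFKBIA (0.14), which encodes an inhibitor of NF-kappa B, did not pass, nor did any of the 12 measured genes of lipopolysaccharide recognition, with the coreceptor CD14 at a log2 FC of 0.14, or of the 18 measured transcription factors, among them EGR1 (log2 FC 0.31), FOXA2 (−0.19), KLF6 (0.17) and NFIL3 (0.16).

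Of 20 measured acute phase proteins of other families 1 was higher, HAMP, which encodes the iron hormone hepcidin, and 0 were lower, with a median of 0.01. The log2 FC of HAMP was 0.83 (exact permutation test, p = 0.0541), and it left the filter with the methods' t-test. The pentraxin APCS, a relative of CRP, had 9.96 ± 0.85 in group PIV and 10.50 ± 0.38 in group CON (SD, n = 6 each; log2 FC −0.53, exact permutation test, p = 0.197), and the fibrinogen chain FGA had a log2 FC of −0.16. The serpin SERPINA3-2 had the greatest log2 FC of this list (1.97) without passing the filter, its signal in CON pigs K1 (4.96) and K3 (4.48) lying far below that of the other 10 pigs. Of 5 measured relatives of ITIH4 0 passed, ITIH3 being the nearest with a log2 FC of −0.16. Of 11 genes of haemoglobin and haem handling only HAMP passed, and the iron exporter SLC40A1 had a log2 FC of 0.20 (exact permutation test, p = 0.0606), with the biliverdin reductases BLVRA at 0.15 and BLVRB at 0.17. Of 17 measured proteins that decline in the acute phase 0 passed, with FETUB at 0.26, F12 at 0.11, APOA1 at 0.09 and TTR at 0.08, and a median of 0.03.

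**Figure D5:**
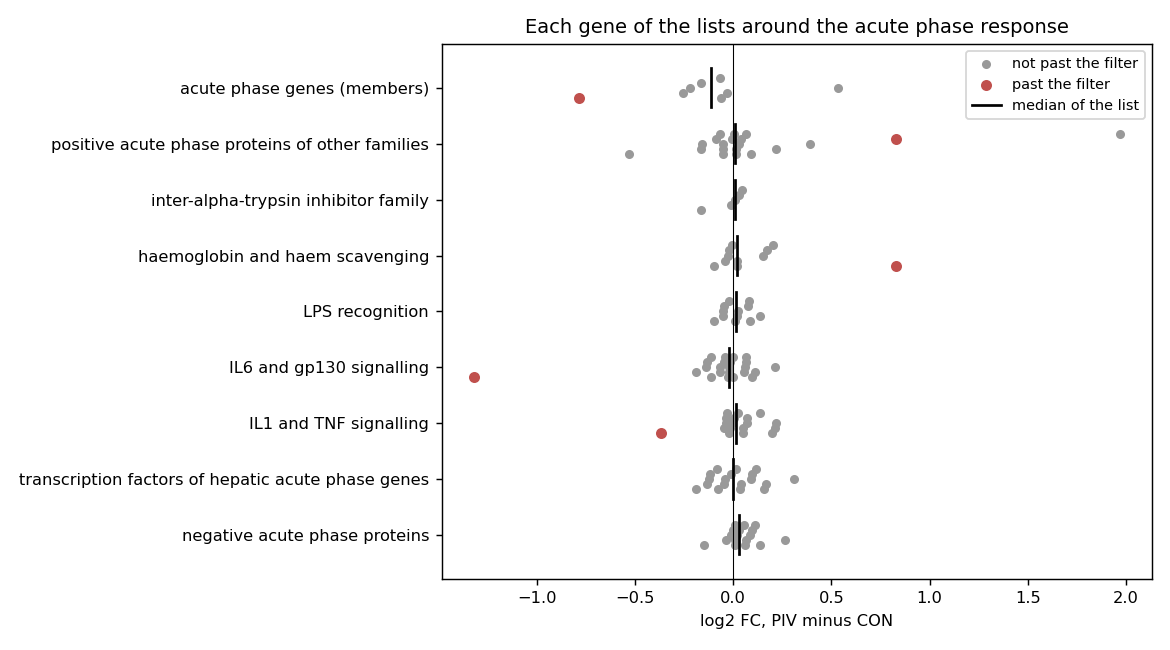
Log2 FC, group PIV minus group CON, of the 8 acute phase genes and of the measured genes of 8 related lists, 1 point per gene with the median of each list marked. The medians of the related lists lie between −0.02 and 0.03, against −0.11 for the 8 acute phase genes.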

How the data were processed

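The authors used RMA for background correction, normalization across arrays and the summary of probes with Affymetrix Expression Console 1.4 (version from the submitters' processing notes), and deposited log2 signals, in a workbook sheet and in a value table whose entries agree within 0.005. The authors' own fold changes and p-values stand in the sheet too and were left aside. Raw intensities were not analysed here, which leaves only the summarised values for other normalizations.

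Clusters were named from the deposited annotation, updated through RefSeq, and where a symbol had several clusters the brightest was used. The 3 ribosomal RNA clusters were left out. Groups were compared over 25385 clusters with limma 3.58.1 in R 4.3.3, tested on simulated data, with Benjamini-Hochberg adjustment. The thresholds of the filter are those of the methods, which name an unpaired t-test (the methods' t-test). Exact permutation tests and correlations (100000 permutations within groups) were computed in Python, with SciPy 1.17.1 for the ranks and the adjustment over pairs. Array medians ranged from 4.75 to 4.88 on the log2 scale, and the number of arrays limits the precision. The p-values are too small if pen mates were alike.

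The members and gene lists were chosen with earlier results of these data known. All members were named, those with the smallest p in each list, up to 4, and the 5 genes most like the members' mean, whereas genes named for pig K3 were chosen after their values were seen. Also run were array weights, the methods' t-test, robust estimation with a variance trend, renewed quantile normalization, equal array medians, a minimum log2 signal of 5 in 6 pigs, the value table, no FC threshold, the next cluster of a symbol and leaving out each pig.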

Additional observations from a re-analysis of the deposited data

Results flagged for a closer look

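The SAA3 signal of CON pig K1 (4.98) lay far from those of the other 5 pigs of its group, the nearest of which had 7.16, so that this gap made up 0.681 of the range of group CON (Dixon's test). Of 20 groups of values tested this was the only one past the critical value, and chance gives about 1 in 20.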

How the results depend on the processing

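With the methods' t-test 300 transcripts, 0 members and 1 gene of the related lists, CISH, passed the filter, and with a variance trend and robust estimation 0 members passed, the log2 FC of LOC100525856 being −0.79 in both. A minimum log2 signal left 161 transcripts and no FC threshold gave 921. Leaving out each pig in turn gave 427 (without P31) to 705 (without K42) transcripts, 0 to 1 members and 2 to 6 related genes past the filter, and 0 to 2 pairs of members. The log2 FC then ranged from −1.02 to −0.61 for LOC100525856, from 0.08 to 0.72 for SAA3, from −0.26 to −0.13 for STAT3, from −0.076 to 0.027 for HP, from −0.46 to 0.064 for CRP and from −0.17 to 0.079 for SOCS3, the last 3 changing sign without K3 only. ITIH4 and HPX kept their sign and stayed short of the filter in all these fits. In SD units the mean over the members differed by −0.40. Equal array medians and renewed quantile normalization changed no member's call or sign. The causes were not tested. No paired analysis was run, because the groups consisted of different pigs that had been allocated at random. No background signal was analysed here, so that how far SOCS3, the dimmest member, lay above it is unknown.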
